A study of Mus musculus with 6 samples.

Results

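Heterotrimeric G proteins carry signals from receptors at the cell surface to enzymes and ion channels inside the cell, and regulators of G protein signalling (RGS proteins) shorten those signals. The mouse genes of both families were described here in the paraventricular thalamus (PVT), a nucleus of the thalamic midline. Mice with chronic constriction injury (CCI), where loose ligatures around a nerve cause lasting neuropathic pain, were set against untreated mice. The genes were chosen by symbol alone, as those whose names begin with the G protein alpha, beta or gamma prefix or with Rgs and a digit, which gave 56 of the 21959 genes in the table. There were 16 G alpha, 5 G beta and 12 G gamma genes, 21 RGS genes and the 2 membrane anchor genes Rgs7bp and Rgs9bp. CCI has 3 libraries, replicates 1 to 3, and control, with no treatment, has 3, replicates 4 to 6, all labelled wild type, so no engineered allele separates or joins them. The labels name brain as the source, and the ages and strain were not used here. According to the design text each group comprised 30 mice, but it does not give how many went into a library, and p-values therefore reflect only the scatter of these 6 libraries, some of which may be technical.

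In the resting state a G alpha subunit holds GDP and is bound to a G beta gamma pair. An activated receptor makes G alpha exchange GDP for GTP, and both G alpha and G beta gamma then act on effectors until G alpha hydrolyses the GTP. Gs and Golf raise cyclic AMP, Gi, Go and Gz lower it, Gq activates phospholipase C beta, and G12 and G13 act on the cytoskeleton. RGS proteins speed the hydrolysis: the R4, RZ and R12 families act alone, whereas R7 proteins need the atypical beta subunit Gnb5 and a membrane anchor. In the brain, Gi/o signalling and its RGS brakes are best known for opioid, dopamine and GABA-B receptors, which lower neuronal firing.

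Deposited read counts summed to between 7989139 and 10529886 in CCI libraries and to between 12337448 and 15438268 in control libraries. Levels are given below as scaled FPKM, that is FPKM recomputed from the counts and the deposited gene length with library totals after TMM scaling, a step that sets the libraries to a common scale from the bulk of genes. The TMM factor ranged over 1.21 to 1.25 for CCI and 0.686 to 0.9 for control, so the choice of scale itself moves fold changes, and control replicate 5 had the lowest factor and lay apart from the other controls in several genes below. Some marker lists of the tissue moved with the groups. For these lists and those below, 27.0% of all tested genes were higher and 25.3% lower in CCI. Of 10 thalamic markers none rose and 8 fell, with summed levels of 344 to 547 in CCI and 1360 to 1534 in control. Of 6 general neuronal markers 1 rose and 2 fell (532 to 653 in CCI, 1137 to 1373 in control), and of 8 astrocyte markers 2 rose and 3 fell (615 to 727 in CCI, 1881 to 2503 in control). A sum weighs abundant markers most, and the median log2 fold changes were small, at -0.21 for the neuronal and -0.23 for the astrocyte list. Of 8 oligodendrocyte markers 6 rose (3500 to 4665 in CCI, 1477 to 2783 in control), as did 5 of 6 precursor markers (125 to 154 in CCI, 29.54 to 36.04 in control) and 6 of 7 tested GABAergic markers (46.8 to 218 in CCI, 27.2 to 56.0 in control). The GABAergic count was 3 without CCI replicate 3, the library with the sum of 218, and 4 without control replicate 6. Of 9 tested cortical and hippocampal markers 6 rose and 1 fell (59.9 to 74.6 in CCI, 39.3 to 53.1 in control). No marker was at 0 in every library. The part of these lists in the results below was not tested, and in bulk tissue fewer cells of a type and less RNA per cell cannot be told apart.

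In CCI, transcripts of the beta subunit gene Gnb1, the Gi genes Gnai1 and Gnai3, the Gq gene Gnaq, the gamma subunit gene Gng3 and the regulators Rgs4 and Rgs19 all fell, from 2.15-fold for Gnaq to 6.50-fold for Gnb1, while Gna12, Gnb2, Gng7, Rgs6, Rgs9, Rgs11, Rgs12 and Rgs22 rose. With edgeR's quasi-likelihood test over all 14259 genes that passed the filter on low counts, 46 of the 56 members were tested and 23 passed an adjusted p of 0.05. That share, 50%, lay near the 52.3% of all tested genes that passed, so the number of calls is at the background. By direction, 8 members (17.4%) were higher and 15 (32.6%) lower, against 27.0% and 25.3% of all tested genes. For 14 tested members every CCI library exceeded every control library, and for 15 every CCI library was below, against 33.6% and 29.4% of all tested genes, or 63.0% in either direction. A call with a change of over 2-fold was made for 16 of the 46 tested members (34.8%), near the 32.2% of all tested genes. The median log2 fold change was 0.02 over the tested members and 0.06 over all genes. The split by direction rests on the scale: with limma on log2(FPKM + 1) of the deposited FPKM, where the fold changes of single genes lay higher by a median of 0.51 on the log2 scale, 20 members were higher and 8 lower. Of all 14259 tested genes 6785 were higher and 1374 lower on that scale. The falls of Gnai1, Gnai3, Gnb1, Rgs4, Rgs7, Rgs19 and Rgs20 and the rises of Gna12, Rgs11 and Rgs22 passed in the same direction under each of the 14 alternative settings.

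**Figure D1:**
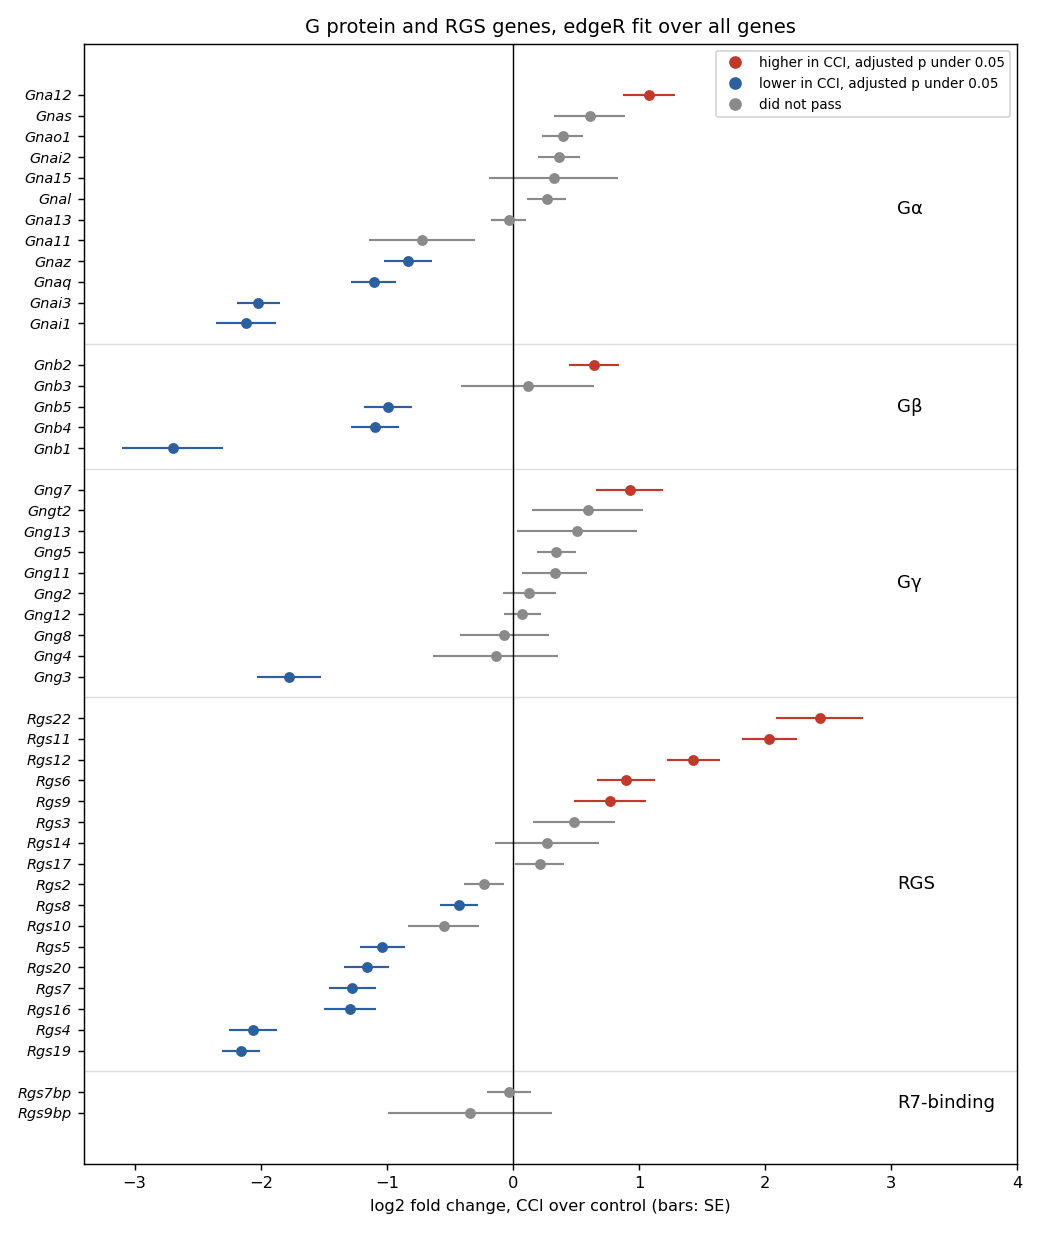
Log2 fold change of CCI over control for each tested member, by class, with bars of 1 SE; red (higher) and blue (lower) points passed an adjusted p of 0.05 in edgeR's quasi-likelihood test and grey points did not. The falls reach -2.70 for Gnb1 and the rises 2.43 for Rgs22; on log2(FPKM + 1) the fold changes of all genes lie higher by a median of 0.51.

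Upstream sequences are shown for members whose call held in every setting: the most abundant beta subunit gene, the Gi pair and the RGS gene with the highest mean level over all libraries, which fell together, and Gna12, the alpha subunit gene that rose. Each is the 250 bases before the RefSeq start, on GRCm38.p6, read 5′ to 3′ on the strand of the gene. Capitals mark matches on either strand of the E-box CACGTG, the GC box GGGCGG, the CCAAT box CCAAT and the TATA box TATAAA. The regions are chr4:155491111-155491360 on the plus strand for Gnb1 and, on the minus strand, chr5:18360414-18360663 for Gnai1, chr3:108146153-108146402 for Gnai3, chr1:169747643-169747892 for Rgs4 and chr5:140830432-140830681 for Gna12.
Gnb1: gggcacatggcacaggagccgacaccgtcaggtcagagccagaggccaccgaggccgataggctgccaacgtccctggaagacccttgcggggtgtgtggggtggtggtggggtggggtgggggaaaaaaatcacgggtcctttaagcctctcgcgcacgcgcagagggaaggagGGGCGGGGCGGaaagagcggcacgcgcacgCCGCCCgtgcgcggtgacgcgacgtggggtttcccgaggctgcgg
Gnai1: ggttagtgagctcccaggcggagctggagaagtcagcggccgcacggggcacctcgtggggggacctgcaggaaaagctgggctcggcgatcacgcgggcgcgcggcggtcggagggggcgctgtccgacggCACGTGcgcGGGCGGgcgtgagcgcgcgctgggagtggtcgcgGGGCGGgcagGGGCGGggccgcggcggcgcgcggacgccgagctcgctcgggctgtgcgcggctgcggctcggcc
Gnai3: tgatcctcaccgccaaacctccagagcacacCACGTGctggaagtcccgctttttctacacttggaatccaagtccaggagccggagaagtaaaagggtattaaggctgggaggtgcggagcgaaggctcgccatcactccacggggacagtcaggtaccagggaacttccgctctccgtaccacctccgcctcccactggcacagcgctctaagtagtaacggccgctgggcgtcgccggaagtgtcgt
Rgs4: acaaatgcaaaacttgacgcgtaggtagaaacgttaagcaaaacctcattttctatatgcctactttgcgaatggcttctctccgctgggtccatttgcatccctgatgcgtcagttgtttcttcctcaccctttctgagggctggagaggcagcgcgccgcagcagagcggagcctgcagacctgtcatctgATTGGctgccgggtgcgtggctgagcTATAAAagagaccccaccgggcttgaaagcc
Gna12: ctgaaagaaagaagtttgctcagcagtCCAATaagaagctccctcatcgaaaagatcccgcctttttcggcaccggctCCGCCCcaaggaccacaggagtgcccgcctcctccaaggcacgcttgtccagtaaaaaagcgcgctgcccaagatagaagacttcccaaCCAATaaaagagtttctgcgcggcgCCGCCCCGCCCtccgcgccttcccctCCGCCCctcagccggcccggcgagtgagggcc
The Gnb1 window holds 3 GC boxes and none of the other motifs. Gnai1 and Gnai3 each hold 1 E-box, 118 and 219 bases before the RefSeq start, and Gnai1 also holds 3 GC boxes. Rgs4 has 1 CCAAT box and 1 TATA box and no GC box, while Gna12 has 4 GC boxes and 2 CCAAT boxes. No base lay in 2 kinds of motif. RefSeq windows were matched for 41 of the 56 members, 54 windows in all. An E-box stood in 7.41% of them and in 6.02% of the 32851 windows of all genes, and its holders were Gnai1, Gnai3, Gna13 and Rgs7. GC boxes stood in 46.3% of member windows and 32.7% of all windows, CCAAT boxes in 27.8% and 33.8%, and TATA boxes in 16.7% and 12.4%. The start was checked by looking for the first 30 transcribed bases in GENCODE transcripts, where they were found for 44 of the 54 windows, but not for Gnai1 or Gnai3. These matches describe letters in a window and do not show binding.

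Of the 12 tested G alpha genes 1 was higher and 4 lower in CCI (8.33% and 33.3%, against 27.0% and 25.3% of all tested genes). Their median log2 fold change was 0.12. On log2(FPKM + 1) the balance turned, with 6 higher and 2 lower, against 6785 higher and 1374 lower of all 14259 tested genes. The Gi/o/z/t family held 3 of the 4 falls among its 5 tested genes (60%, against 25.3% of all tested genes) and no rise. Gnai1, an adenylyl cyclase inhibiting subunit that is rich in brain, stood at 21.5, 21.6 and 30.9 scaled FPKM in the CCI libraries and at 100.3, 86.2 and 135 in the control libraries. Each control library lay well above each CCI library. Means were 24.7 ± 5.40 in CCI and 107 ± 24.9 in control (SD, n = 3 each), which gave a log2 fold change of -2.12 ± 0.24 (SE) and an adjusted p of 0.000314 in edgeR's test. Gnai3, a close relative that is expressed in most cell types, stood at 10.6, 12.9 and 11.1 in CCI and at 40.8, 52.6 and 47.2 in control. The groups were again far apart, at -2.02 ± 0.17 (adjusted p = 0.000181, edgeR). The remaining Gi gene, Gnai2, which encodes the Gi subunit common in immune and vascular cells, had 15.86, 14.23 and 19.14 scaled FPKM in CCI and 12.02, 12.10 and 14.13 in control. Its CCI libraries all lay above the control libraries, by a narrow gap, and the change of 0.36 ± 0.17 did not pass (adjusted p = 0.0966, edgeR), whereas on log2(FPKM + 1) it was 0.89 (adjusted p = 0.00535).

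Gnao1, the Go subunit and a major G protein of neurons, had 23.4, 21.2 and 25.2 scaled FPKM in CCI and 19.1, 16.3 and 17.7 in control. The groups did not overlap, but the log2 fold change of 0.39 ± 0.16 missed the threshold (adjusted p = 0.0722, edgeR). It passed without control replicate 5, at 0.32 (adjusted p = 0.0483), and on log2(FPKM + 1), at 0.95 (adjusted p = 0.00384), but was at -0.17 with a correction for gene length. Gnaz, a Gi relative of neurons that resists pertussis toxin, fell, with 14.04, 15.87 and 13.74 in CCI and 21.44, 32.89 and 23.49 in control (-0.83 ± 0.19, adjusted p = 0.00686, edgeR). All of Gnaz lies within the opposite-strand gene Rsph14, and as no strand setting is stated the reads of such pairs may not be separated. Its call was lost on log2(FPKM + 1), at -0.20 (adjusted p = 0.245), and with a correction for gene length and mean expression, at -0.22 (adjusted p = 0.424). The transducin genes of the retina and of taste cells were near the floor: Gnat1 had 1 count in all of CCI and 0 in all of control, Gnat2 had 19 and 5, and Gnat3 had no count.

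Neither stimulatory subunit gene passed in the main test, while both were higher on log2(FPKM + 1), Gnal by 0.76 (adjusted p = 0.00984) and Gnas by 0.41 (adjusted p = 0.0179). Gnal encodes Golf, the stimulatory subunit of olfactory and striatal neurons, and had 8.58, 7.71 and 9.26 scaled FPKM in CCI and 7.58, 6.35 and 7.31 in control. The groups were separated by a narrow gap, and the log2 fold change was 0.27 ± 0.15 (adjusted p = 0.172, edgeR). It passed with the stricter filter, at 0.44 (adjusted p = 0.0357), and was at -0.31 with the length correction. Of the 138577 bp that Gnal spans, the same-strand gene Chmp1b overlaps 2524 bp and the opposite-strand gene Mppe1 1750 bp. The part of these overlaps in the Gnal counts was not tested. Gnas, the widely expressed Gs gene, was listed at only 0.616, 0.457 and 0.853 scaled FPKM in CCI and 0.400, 0.426 and 0.440 in control, which rest on 253 reads in CCI and 159 in control. Its CCI libraries all lay above the control libraries, yet the change of 0.61 ± 0.28 did not pass (adjusted p = 0.101, edgeR). The antisense gene Gm20721 overlaps 16394 bp of the 62425 bp that Gnas spans, and the part of this overlap in the low count was not tested.

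Of the Gq family 1 of 3 tested genes fell (33.3%, against 25.3% of all tested genes) and none rose. Gnaq, which couples receptors to phospholipase C beta, stood at 25.7, 27.7 and 33.4 scaled FPKM in CCI and at 65.1, 57.8 and 63.8 in control. No CCI library came near the control range, and the log2 fold change was -1.11 ± 0.18 (adjusted p = 0.00137, edgeR). On log2(FPKM + 1) it was -0.50 (adjusted p = 0.0555). Gna11, which shares most of the functions of Gnaq, had 16.5, 16.4 and 18.8 in CCI and 42.1, 10.1 and 32.8 in control. Control replicate 5 was the lowest of all 6 libraries and the other controls the highest, so the groups overlapped and -0.72 ± 0.42 did not pass (adjusted p = 0.179, edgeR). Without control replicate 5 Gna11 was at -1.14 (adjusted p = 3.77e-05). Gna15, the family member of blood cells, was below 1 scaled FPKM in every library and did not pass (0.32 ± 0.51, adjusted p = 0.618, edgeR). Gna14 had 17 counts in all of CCI and 21 in all of control and was not tested.

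Gna12 was the only alpha subunit gene that rose in the main test, although on log2(FPKM + 1) 6 did. It signals to the cytoskeleton, and it had 13.9, 14.1 and 20.9 scaled FPKM in CCI and 8.65, 7.75 and 6.79 in control. The lowest CCI library was 1.61 times the highest control library, with means of 16.3 ± 4.01 in CCI and 7.73 ± 0.929 in control (SD, n = 3 each). The log2 fold change was 1.08 ± 0.21 (adjusted p = 0.00292, edgeR), a 2.11-fold rise. The opposite-strand gene Amz1 overlaps 3032 bp of the 72024 bp that Gna12 spans. The part of this overlap in the Gna12 counts was not tested. Gna13, the close partner of Gna12, had 6.48, 6.38 and 5.93 in CCI and 6.34, 6.35 and 6.52 in control, with overlapping groups and a change of -0.03 ± 0.14 (adjusted p = 0.859, edgeR).

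Beta subunit transcripts were dominated by 1 gene. Of the 5 G beta genes 3 fell (60%), 1 rose (20%) and 1 did not pass, against 25.3% lower and 27.0% higher among all tested genes. These are counts of few genes, and their median log2 fold change was -0.99. Gnb1, the standard beta subunit of most brain G proteins, ranked 12 among all genes of the table by mean level. It stood at 293, 316 and 309 scaled FPKM in CCI and at 1347, 3166 and 1448 in control. The CCI libraries were tightly grouped and the lowest control library was 4.26 times the highest CCI library, with control replicate 5 far above the other controls. Means were 306 ± 11.8 in CCI and 1987 ± 1022 in control (SD, n = 3 each), and the log2 fold change was -2.70 ± 0.40 (adjusted p = 0.000917, edgeR). Without control replicate 5 it was -2.22 (adjusted p = 2.72e-06). Before any scaling between libraries, it took 0.156%, 0.163% and 0.162% of the counts in CCI and 0.517%, 0.927% and 0.535% in control. By count it ranked 30 to 32 within the CCI libraries and 3 to 4 within the control libraries.

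The other beta genes were far lower. Gnb5, the atypical subunit that pairs with R7 RGS proteins, fell, with 35.1, 38.8 and 31.8 scaled FPKM in CCI and 79.0, 55.2 and 76.1 in control (-0.99 ± 0.19, adjusted p = 0.00296, edgeR). Gnb4 had 3.70, 4.35 and 3.36 in CCI and 8.85, 6.36 and 9.10 in control, a fall of similar size (-1.09 ± 0.19, adjusted p = 0.00192, edgeR). In both genes the lowest control library was replicate 5 and still lay above all CCI libraries. Neither passed on log2(FPKM + 1), where Gnb5 was at -0.37 (adjusted p = 0.222) and Gnb4 at -0.41 (adjusted p = 0.156), and Gnb5 was at -0.05 (adjusted p = 0.837) with the correction for length and mean expression. Gnb2, a widely expressed standard beta subunit, rose, with 11.8, 10.9 and 16.7 in CCI and 8.21, 7.68 and 9.37 in control (0.64 ± 0.20, adjusted p = 0.0259, edgeR). That call was lost when CCI replicate 1 (adjusted p = 0.0511), CCI 3 (0.0983) or control 4 (0.0824) was left out. The same-strand gene Epo overlaps 5116 bp of the 5384 bp that Gnb2 spans, and the part of this overlap in the Gnb2 counts was not tested. Gnb3, known from photoreceptors and taste cells, was below 1 scaled FPKM throughout and did not pass (0.12 ± 0.53, adjusted p = 0.866, edgeR).

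Gamma subunits anchor the beta gamma pair in the membrane through a lipid tail. Of 12 genes 10 were tested, with a median log2 fold change of 0.23. In the main test 8 did not pass, 1 rose and 1 fell (10% each, against 27.0% and 25.3% of all tested genes). On log2(FPKM + 1) 5 were higher, against 6785 of all 14259 tested genes. Gng3, the neuronal gamma subunit and the most abundant one here, stood at 73.2, 72.7 and 112 scaled FPKM in CCI and at 244, 374 and 266 in control. The lowest control library was 2.18 times the highest CCI library, and means were 86.0 ± 22.6 in CCI and 295 ± 69.8 in control (SD, n = 3 each). The log2 fold change was -1.78 ± 0.26 (adjusted p = 0.000821, edgeR), against -0.56 (adjusted p = 0.0817) with the correction for length and mean expression. The opposite-strand gene Gm50139 covers Gng3 in full and Bscl2 covers 1728 bp of it, so its reads may not be separated from theirs. Gng7, a gamma subunit that pairs with Golf in the striatum, rose, with 3.86, 4.08 and 6.45 in CCI and 3.06, 2.12 and 2.39 in control (0.92 ± 0.26, adjusted p = 0.0174, edgeR). It missed the threshold without CCI replicate 3 (adjusted p = 0.0694) or control replicate 6 (0.0542). Of 8 striatal markers, a list that includes Rgs9, 2 rose and 0 fell. Their summed level was 23.3 to 27.6 in CCI and 13.7 to 23.7 in control, ranges that overlap. The part of these markers in the Gng7 rise was not tested.

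The remaining gamma genes overlapped between groups or differed little. Gng5, a widely expressed subunit, had 38.9, 42.0 and 45.6 scaled FPKM in CCI and 33.6, 36.4 and 29.7 in control, with no overlap and a change of 0.34 ± 0.15 that did not pass (adjusted p = 0.0917, edgeR). Gng11, known from endothelium, had 56.5, 47.8 and 69.2 in CCI and 38.4, 65.0 and 34.8 in control. Control replicate 5 again stood apart from the other controls, while summed endothelial markers, 3 of 6 of which rose, were at 21.2 to 23.5 in CCI and 21.71 to 24.99 in control. The change of 0.33 ± 0.26 did not pass (adjusted p = 0.303, edgeR). Without control replicate 5 Gng11 was at 0.64 (adjusted p = 0.00599) and Gng5 at 0.39 (adjusted p = 0.0164), and on log2(FPKM + 1) at 0.95 (0.00579) and 0.92 (0.00149). Gng8, which is expressed in olfactory neurons and the habenula, had 39.6, 22.9 and 23.1 in CCI and 30.0, 43.4 and 16.5 in control. Its highest library in each group, CCI replicate 1 and control replicate 5, was also the highest for the 6 habenular markers, none of which rose and 3 of which fell. The summed habenular level was 207, 116 and 67.7 in CCI and 345, 504 and 176 in control. Gng12 ranged over 13.4 to 16.7 in CCI and 13.9 to 14.4 in control, and Gng2 over 11.8 to 16.7 in CCI and 9.59 to 15.1 in control. None of these 3 passed, and all overlapped between groups. Gng4 was at 2.34, 1.78 and 7.01 in CCI and at 5.08, 2.51 and 4.68 in control. Its high library, CCI replicate 3, also held the highest summed GABAergic marker level, 218, against 46.8 and 95.9 in the other CCI libraries. Gng13, a sensory subunit, and Gngt2, the cone photoreceptor one, were low and did not pass (0.51 ± 0.48 and 0.59 ± 0.44 with adjusted p of 0.391 and 0.282, edgeR), although Gngt2 passed without control replicate 5 (1.04, adjusted p = 0.0491) and on log2(FPKM + 1) (0.70, adjusted p = 0.0233). Gng10 had 4 counts in all of CCI and 4 in all of control, and Gngt1 had 1 and 0, and neither was tested. The same-strand gene Gm20503 overlaps 6801 bp of the 6816 bp that Gng10 spans, and the part of this overlap in the low count was not tested.

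**Figure D2:**
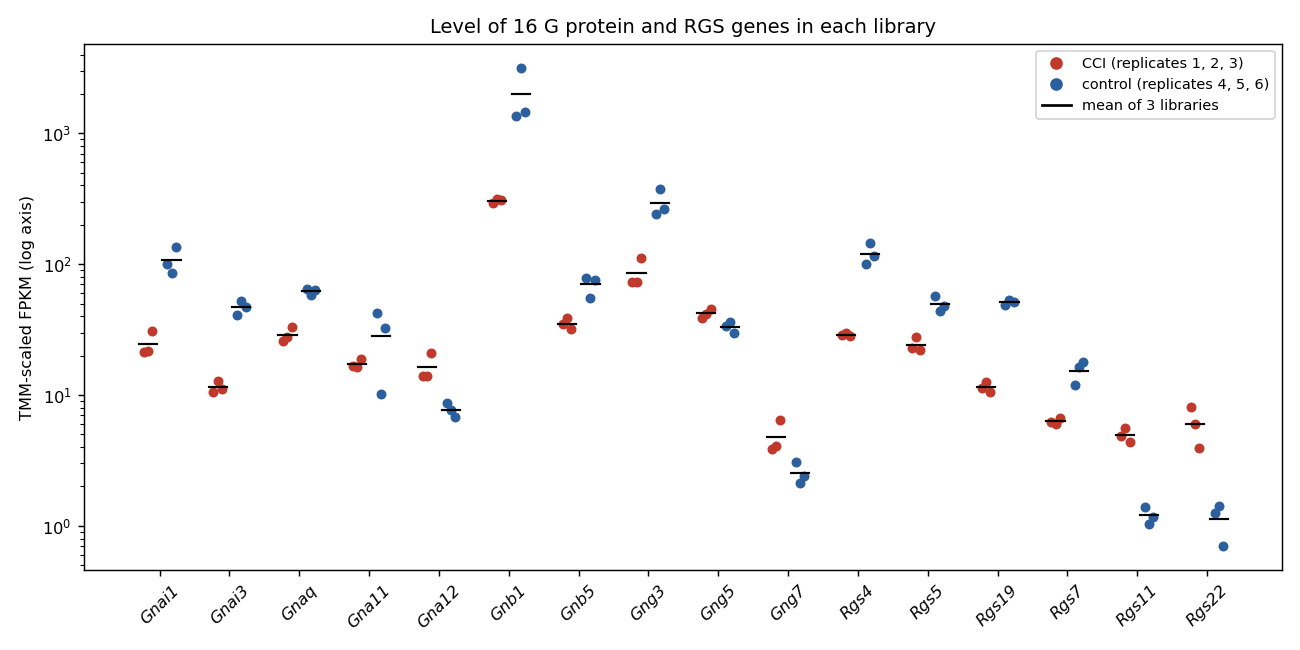
Level of 16 members in every library, as TMM-scaled FPKM on a log axis, with CCI (red) left of control (blue) for each gene and a bar at the mean of 3 libraries. In Gnb1 the 3 CCI libraries sit between 293 and 316 and the control libraries between 1347 and 3166.

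Shares within each class do not depend on the scale between libraries and were taken as a description. Gnb1 made up 85.1% to 85.6% of the beta transcripts in CCI and 93.3% to 97.9% in control, and Gnb5 made up 8.81% to 10.5% in CCI and 1.71% to 5.47% in control. Within G gamma, Gng3 held 30.2% to 36.9% in CCI and 63.2% to 69.2% in control. Gng11 took 21.5% to 23.3% in CCI and 9.07% to 11.8% in control, and Gng5 15.0% to 18.8% in CCI and 6.60% to 8.72% in control. Gng3 was the leading gamma gene in every library, by a smaller margin in CCI. Among G alpha, the share of Gnai1 was 13.6% to 16.2% in CCI and 29.8% to 37.8% in control. Gnas, with the low count given above, added only 0.286% to 0.448% of the alpha sum in CCI and 0.123% to 0.147% in control. Gnao1, whose level did not pass the test, held 13.2% to 14.8% of alpha transcripts in CCI and 4.98% to 5.89% in control, and Gna12 held 8.80% to 10.99% in CCI and 1.91% to 2.68% in control. No CCI library overlapped a control library in any of these shares, but other shares did overlap. Gna11 held 9.87% to 10.47% of alpha transcripts in CCI and 3.49% to 12.99% in control. Gng8 held 7.61% to 16.3% of gamma transcripts in CCI and 4.30% to 7.87% in control, and the shares of Gnaz and Gng4 overlapped as well. Shares in a class are tied to each other, so a fall of its leading gene alone raises the rest. The share of Gnb5 was higher in CCI although its level fell.

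**Figure D3:**
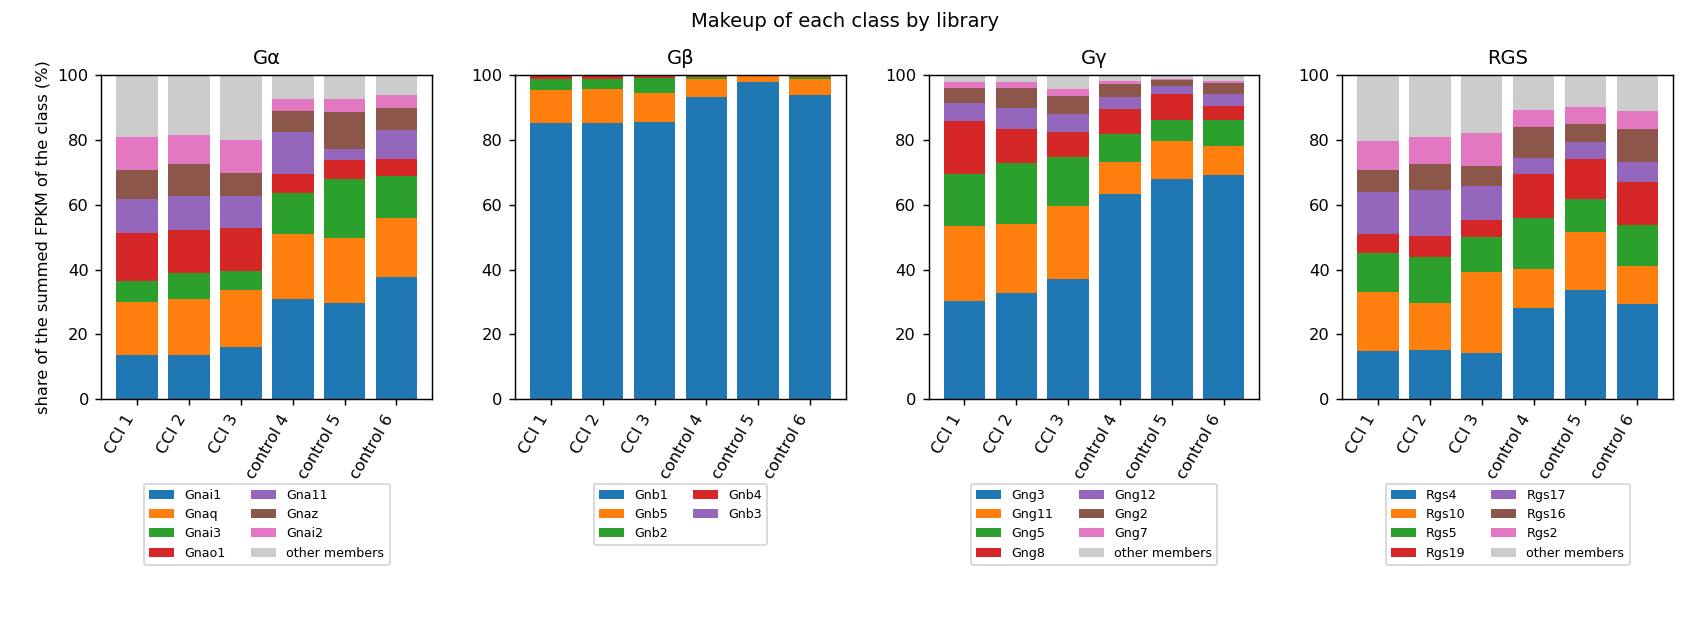
Share of each class's summed scaled FPKM held by its leading genes in every library, in percent, with CCI libraries left of control libraries. Gng3 holds 30.2% to 36.9% of G gamma in CCI and 63.2% to 69.2% in control, and Gnai1 13.6% to 16.2% of G alpha in CCI and 29.8% to 37.8% in control.

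Summed over each class, scaled FPKM was lower in every CCI library than in any control library, although on the deposited FPKM the G alpha and G gamma sums overlapped. G alpha genes together had 158, 160 and 191 in CCI and 324, 289 and 356 in control, and G beta genes 344, 371 and 361 in CCI and 1444, 3236 and 1543 in control. Without Gnb1 the beta sum was 51.4, 54.7 and 52.0 in CCI and 96.7, 69.6 and 95.02 in control. G gamma genes had 243, 223 and 303 in CCI and 386, 552 and 384 in control, and RGS genes 192, 196 and 200.5 in CCI and 360, 433 and 389 in control. On the deposited FPKM, with no scaling between libraries, the G gamma sums were at 303, 269 and 374 in CCI and 347, 378 and 333 in control. The G alpha sums there were at 197, 193 and 235 in CCI and 292, 198 and 308 in control, with control replicate 5 inside the CCI range. The G beta and RGS sums stayed apart.

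Of the 21 RGS genes 17 were tested, and 5 were higher (29.4%) and 7 lower (41.2%), against 27.0% and 25.3% of all tested genes. Their median log2 fold change was -0.23. The balance turned on log2(FPKM + 1), with 7 higher, 4 lower and a median of 0.35. Of all 14259 tested genes 6785 were higher and 1374 lower on that scale, with a median of 0.42. The R4 family, small proteins that act on Gi and Gq, had 4 falls and no rise among 6 tested genes, and the R7 family had 3 rises and 1 fall among 4, counts of few genes that were not tested as families. Of these calls, the falls of Rgs5, Rgs8 and Rgs16 were lost on log2(FPKM + 1) and the rises of Rgs6 and Rgs9 when single libraries were left out. Rgs4, a neuronal brake on Gi/o and Gq signalling, was the most abundant RGS gene by the mean of all 6 libraries. In CCI alone the mean of Rgs10 was higher, at 37.8 against 28.9 for Rgs4. Rgs4 stood at 28.7, 29.7 and 28.4 scaled FPKM in CCI and at 101, 146 and 115 in control. The CCI libraries were tightly grouped, while the lowest control library was 3.41 times the highest CCI library. Means were 28.9 ± 0.677 in CCI and 121 ± 23.1 in control (SD, n = 3 each), and the log2 fold change was -2.06 ± 0.19 (adjusted p = 0.000207, edgeR). Rgs4 made up 14.2% to 15.2% of RGS transcripts in CCI and 28.1% to 33.7% in control.

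Rgs16, a clock-linked gene with high thalamic expression, had 13.2, 15.2 and 12.1 scaled FPKM in CCI and 34.1, 24.6 and 39.9 in control. It fell by 1.29 ± 0.21 on the log2 scale (adjusted p = 0.0013, edgeR), with no overlap between groups. Rgs5, best known as a marker of pericytes and also expressed in neurons, had 22.7, 27.8 and 22.0 in CCI and 56.7, 43.6 and 48.4 in control (-1.04 ± 0.18, adjusted p = 0.00188, edgeR). Of 6 mural cell markers 2 rose and 1 fell, and their summed level was 25.8 to 36.1 in CCI and 22.7 to 35.5 in control, ranges that overlap. Neither gene passed on log2(FPKM + 1), at -0.64 (adjusted p = 0.0699) for Rgs16 and -0.42 (adjusted p = 0.122) for Rgs5. Rgs8, a neuronal member, fell by a small amount, with 5.62, 4.92 and 6.14 in CCI and 7.07, 7.46 and 7.95 in control (-0.43 ± 0.15, adjusted p = 0.0397, edgeR). It was the only called member to turn sign in any setting, at 0.14 on log2(FPKM + 1), and it missed the threshold when CCI replicate 1 (adjusted p = 0.117), CCI 2 (0.154) or control 6 (0.124) was left out. Rgs2, a Gq-selective immediate early gene, had 17.02, 16.31 and 20.84 in CCI and 19.66, 22.36 and 21.47 in control and did not pass (-0.23 ± 0.16, adjusted p = 0.247, edgeR). Rgs3 did not pass either (0.49 ± 0.33, adjusted p = 0.239, edgeR), except on log2(FPKM + 1) (0.82, adjusted p = 0.0356) among the settings run. The immune-cell members were near the floor, with 8 counts in all of CCI and 2 in all of control for Rgs1, 5 and 3 for Rgs13, and 9 and 9 for Rgs18, and the taste-cell gene Rgs21 had none.

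The RZ family, which acts on Gi and Gz, had 2 falls among its 3 genes (66.7%, against 25.3% of all tested genes), a count of few genes. Rgs19, which binds Gi subunits and is found on intracellular membranes, stood at 11.4, 12.6 and 10.6 scaled FPKM in CCI and at 49.1, 53.7 and 51.7 in control. Both groups were tight and far apart, with means of 11.5 ± 0.986 in CCI and 51.5 ± 2.31 in control (SD, n = 3 each). The log2 fold change of -2.16 ± 0.15 (adjusted p = 0.000153, edgeR) had the smallest adjusted p of the members. Rgs20, which acts on Gz, had 4.37, 4.37 and 4.89 in CCI and 9.58, 12.1 and 8.89 in control (-1.16 ± 0.18, adjusted p = 0.00105, edgeR). Rgs17, the remaining family member, had 24.9, 28.1 and 20.9 in CCI and 17.3, 22.8 and 23.7 in control, with overlapping groups (0.21 ± 0.19, adjusted p = 0.384, edgeR), and was at 0.78 (adjusted p = 0.00685) on log2(FPKM + 1). It made up 10.4% to 14.4% of RGS transcripts in CCI and 4.81% to 6.11% in control.

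R7 proteins bind Gnb5 and act on Gi/o, and the levels of Rgs7 and Rgs11 came closer together in CCI. Means of Rgs11 and Rgs6 were near each other in control (1.21 and 1.19) and further apart in CCI (4.96 and 2.22). Rgs7, a neuronal member, stood at 6.21, 6.02 and 6.73 scaled FPKM in CCI and at 11.9, 16.3 and 17.7 in control (-1.27 ± 0.18, adjusted p = 0.000811, edgeR). Rgs11, the partner of Rgs7 in retinal bipolar cells, stood at 4.88, 5.62 and 4.36 in CCI and at 1.40, 1.04 and 1.17 in control. Its means were 4.96 ± 0.634 in CCI and 1.21 ± 0.182 in control (SD, n = 3 each), a rise of 2.03 ± 0.22 (adjusted p = 0.000263, edgeR). The level of Rgs7 was 1.07 to 1.54 times that of Rgs11 in the CCI libraries and 8.46 to 15.7 times in the control libraries. The opposite-strand gene Arhgdig overlaps 4836 bp of the 8374 bp that Rgs11 spans. Rgs6 rose, with 2.5, 2.5 and 1.6 in CCI and 1.4, 1.1 and 1.1 in control (0.90 ± 0.23, adjusted p = 0.0113, edgeR). Its call was lost with a correction for gene length, at 0.39 (adjusted p = 0.19), and without CCI replicate 1 (0.0534) or CCI replicate 2 (0.051). Rgs9, the striatal and photoreceptor member, had 1.52, 1.64 and 1.05 in CCI and 0.978, 0.592 and 0.878 in control (0.77 ± 0.28, adjusted p = 0.0483, edgeR), a call lost in 9 of 13 alternatives, among them the omission of CCI replicate 1 (0.142), of CCI 2 (0.161) and of each control library in turn (0.0615 to 0.0889). Of the anchors, Rgs7bp had 25.5, 24.6 and 30.4 in CCI and 24.4, 26.9 and 31.0 in control (-0.03 ± 0.17, adjusted p = 0.88, edgeR). Gnb5 and Rgs7 therefore fell, as given above, while the anchor gene overlapped between groups. Rgs9bp rested on 26 counts in all of CCI and 33 in all of control and did not pass (-0.34 ± 0.65, adjusted p = 0.683, edgeR).

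The R12 family holds a small and a pair of large RGS proteins that act on Gi. Rgs12, a multidomain scaffold, rose, with 1.80, 1.93 and 1.68 scaled FPKM in CCI and 0.673, 0.571 and 0.749 in control (1.43 ± 0.21, adjusted p = 0.000879, edgeR). It was at 0.60 (adjusted p = 0.052) with the correction for length and mean expression. Rgs10, the small member that is abundant in microglia, had 35.1, 28.4 and 50.0 in CCI and 43.2, 77.7 and 45.4 in control. The groups overlapped and -0.55 ± 0.28 did not pass (adjusted p = 0.133, edgeR). Of 8 microglial markers 1 rose and 1 fell, with summed levels of 66.5 to 87.9 in CCI and 103 to 138 in control. Their median log2 fold change was 0.31, within a range of -1.92 to 0.82, so the sum and the median differ in direction. Rgs14, known from hippocampal area CA2, had 0.733, 0.969 and 2.09 in CCI and 1.05, 0.781 and 1.31 in control and did not pass (0.27 ± 0.41, adjusted p = 0.602, edgeR). Rgs22, best known from testis, had 8.10, 6.06 and 3.93 in CCI and 1.26, 1.42 and 0.700 in control. Its groups did not overlap, with means of 6.03 ± 2.09 in CCI and 1.13 ± 0.378 in control (SD, n = 3 each). The rise of 2.43 ± 0.34 (adjusted p = 0.000737, edgeR), or 5.40-fold, was the largest among the members. Summed markers of ependyma and choroid plexus, 1 of 6 of which rose, were at 1643 to 2352 in CCI and at 225 to 3404 in control, and their part in the Rgs22 values was not tested.

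**Figure D4:**
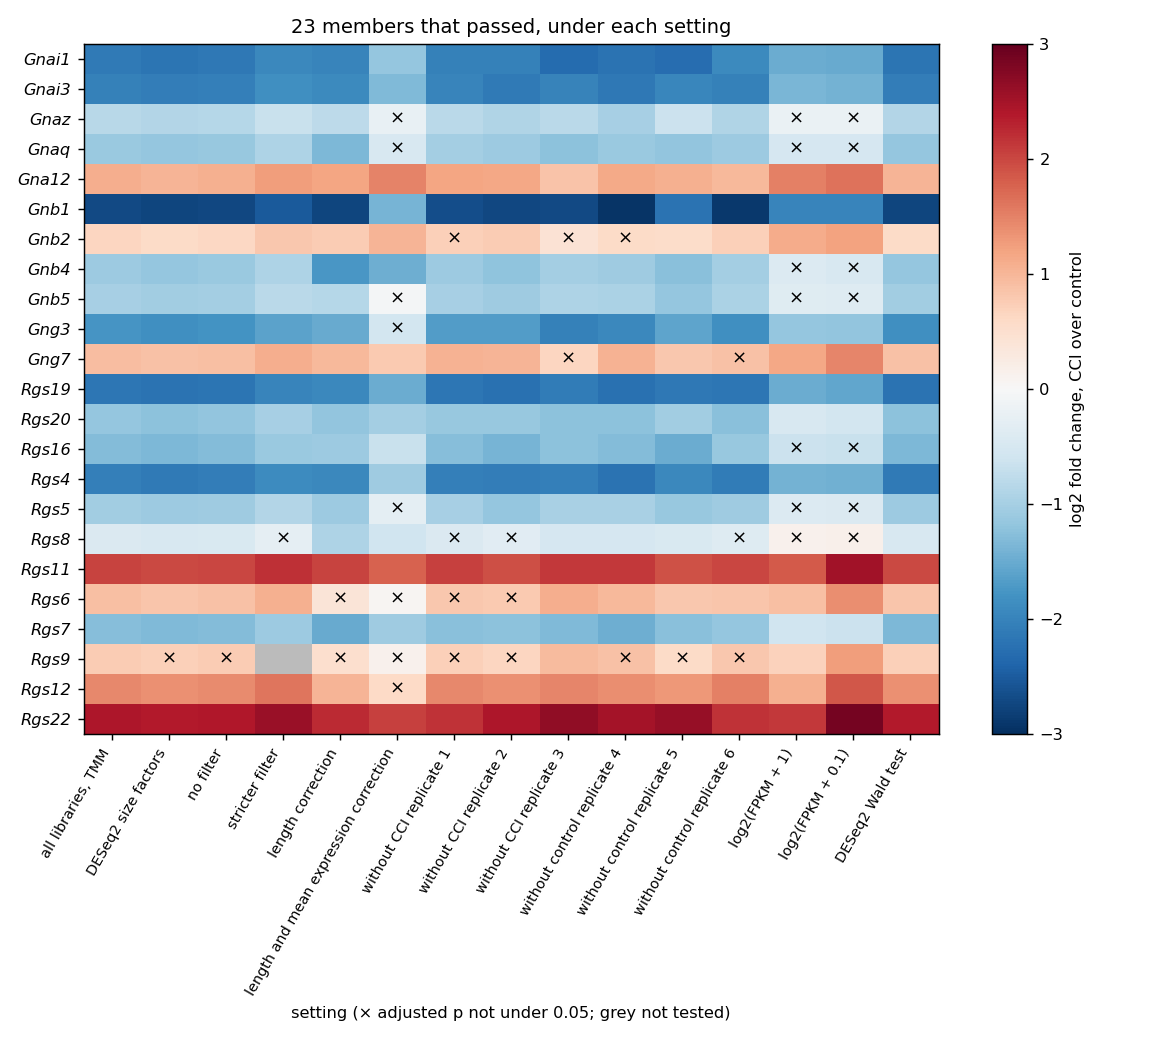
Log2 fold change of CCI over control, as colour, for the 23 members called, under the edgeR test of all libraries (left column) and the 14 alternative settings, where a cross marks an adjusted p not under 0.05 and grey a gene not tested. Gnai1, Gnai3, Gnb1, Rgs4, Rgs7, Rgs19 and Rgs20 stay below 0 and Gna12, Rgs11 and Rgs22 above 0 throughout, whereas Rgs8 crosses to 0.14 on log2(FPKM + 1).

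Several members are neighbours in the genome (GRCm39 coordinates of the table). Rgs4 and Rgs5 lie 45.7 kb apart on chromosome 1 and both fell, and Rgs8 and Rgs16 lie 40.0 kb apart on the same chromosome and both fell. Chromosome 1 holds 11 of the 21 RGS genes. Rgs8 was the only called member whose sign turned on log2(FPKM + 1). Gnai3 fell, and Gnat2, 5.85 kb away on chromosome 3, had too few counts for a test. Gna11 and Gna15 lie 4.498 kb apart on chromosome 10 and neither passed. Rgs9 and Gna13 lie 64.7 kb apart on chromosome 11, with log2 fold changes of 0.77 ± 0.28 and -0.03 ± 0.14, and their difference was not tested.

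Effectors and partners of these G proteins were followed in lists of their own. Adenylyl cyclases make cyclic AMP, are driven by Gs and are in part held back by Gi. Of 9, all tested, 3 rose (33.3%, against 27.0% of all tested genes) and none fell. There were 6 higher on log2(FPKM + 1), and 2 (without CCI replicate 1 or control replicate 6) to 5 (without control replicate 5) with 1 library left out. With the length correction 2 were higher and 2 lower, and with the correction for length and mean expression 2 were higher and 1 lower. Adcy6 had 1.79, 1.99 and 2.48 scaled FPKM in CCI and 0.368, 0.471 and 0.640 in control (2.07 ± 0.28, adjusted p = 0.000598, edgeR). Adcy2, a cyclase that G beta gamma stimulates, had 6.38, 6.18 and 5.93 in CCI and 2.92, 4.49 and 3.16 in control (0.81 ± 0.20, adjusted p = 0.0104, edgeR). Adcy7 rose by 1.21 ± 0.36 (adjusted p = 0.0206, edgeR), a call lost when CCI replicate 1 (0.0847), CCI replicate 2 (0.0713) or control 6 (0.0714) was left out. Adcy1, the calcium-stimulated cyclase of neurons, did not pass (0.05 ± 0.21, adjusted p = 0.863, edgeR).

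Of the 3 tested phospholipase C beta genes, the effectors of Gq, Plcb1 rose (1.15 ± 0.21, adjusted p = 0.00246, edgeR). Plcb4, the more abundant one in this tissue, had 16.11, 15.50 and 16.16 scaled FPKM in CCI and 12.06, 22.15 and 16.99 in control and did not pass (-0.10 ± 0.22, adjusted p = 0.727, edgeR). Plcb3 did not pass (0.67 ± 0.29, adjusted p = 0.079, edgeR) in the main test, but passed without control replicate 5 (0.90, adjusted p = 0.00874) and on log2(FPKM + 1) (0.72, adjusted p = 0.00304). Among the 4 genes of GIRK channels, potassium channels opened by G beta gamma, Kcnj6 rose, with 3.10, 2.03 and 3.82 in CCI and 1.15, 0.914 and 0.9997 in control (1.55 ± 0.26, adjusted p = 0.00167, edgeR). The other 3 GIRK genes, Kcnj3, Kcnj5 and Kcnj9, did not pass.

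Receptor kinases and arrestins switch receptors off. Of 8 tested 3 rose and 1 fell (37.5% and 12.5%, against 27.0% and 25.3% of all tested genes). There were 6 higher and 0 lower when log2(FPKM + 1) was tested, and with the length correction or the stricter filter 1 was higher and 1 lower. Arrb2, an arrestin of most receptors, fell, with 2.50, 1.67 and 3.41 scaled FPKM in CCI and 10.1, 4.74 and 8.73 in control (-1.64 ± 0.35, adjusted p = 0.00469, edgeR). That call was lost at -0.83 (adjusted p = 0.0723) on log2(FPKM + 1). The kinase genes Grk3 (0.66 ± 0.14, adjusted p = 0.00476, edgeR) and Grk4 (1.26 ± 0.30, adjusted p = 0.00847, edgeR) rose. Grk3 was at 0.23 (adjusted p = 0.209) with the length correction, and Grk4 at 0.80 (adjusted p = 0.0728) with the correction for length and mean expression. The main kinase gene Grk2 did not pass (0.56 ± 0.32, adjusted p = 0.17, edgeR).

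The list of chaperones, exchange factors and GoLoco proteins, which fold G proteins or act on them without a receptor, had 3 rises and 3 falls among 9 tested genes (33.3% each way, against 27.0% higher and 25.3% lower among all tested genes). The counts were 4 higher and 0 lower on log2(FPKM + 1). Ccdc88a encodes girdin, which activates Gi without a receptor, and had 12.7, 11.3 and 12.8 scaled FPKM in CCI and 1.43, 1.74 and 1.70 in control. The lowest CCI library was 6.50 times the highest control library, and the log2 fold change was 2.92 ± 0.16 (adjusted p = 0.000153, edgeR). Its relative Ccdc88c rose as well (1.46 ± 0.28, adjusted p = 0.00295, edgeR), but not with the correction for length and mean expression (0.40, adjusted p = 0.26). Ric8b, a chaperone of Gs and Golf alpha subunits, had 9.30, 9.14 and 8.78 in CCI and 18.7, 15.4 and 22.1 in control (-1.04 ± 0.17, adjusted p = 0.00142, edgeR). On log2(FPKM + 1) it was at -0.40 (adjusted p = 0.15). The other falls were of Pdcl (-0.77 ± 0.16, adjusted p = 0.00407, edgeR) and of Gpr158, an orphan receptor that binds R7 proteins at the membrane (-0.88 ± 0.22, adjusted p = 0.00934, edgeR). Gpr179 rose (1.49 ± 0.49, adjusted p = 0.0323, edgeR), on 89 counts in all of CCI and 32 in all of control.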

How the data were processed

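RNA from mouse PVT was sequenced in 6 libraries, and the reads themselves were not analysed here. Upstream tools, per the submitters' processing notes, included the aligner HISAT2 2.1.0 on GRCm39 and the counter HTSeq 0.9.1, beside StringTie 2.2.1, DESeq 1.38.3 and fastp 0.22.0, and whether counting used strand is not given in the sources used here. The deposited table holds a whole-number read count and an FPKM value per gene and library and a gene length, per the file headers. The deposited FPKM equals count divided by length and column total, within a relative deviation of 1.3e-07.

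Counts were tested over all genes with edgeR 4.0.16 (R 4.3.3, TMM scaling, filterByExpr, quasi-likelihood F-test, Benjamini-Hochberg threshold 0.05), comparing CCI with control and no covariate. The SE was taken as the absolute log2 fold change over the square root of F. Counting error and spread between libraries both limit precision. Alternatives were DESeq2 1.42.0 size factors and Wald test, no filter, a stricter filter (mean count of 100), limma 3.58.1 on log2(FPKM + 1) and log2(FPKM + 0.1), smooth corrections (spline, 5 degrees of freedom) for length alone or with mean expression, and each library left out. Python 3.11.15, numpy 2.4.6, pandas 2.3.3 and matplotlib 3.10.9 were used. The edgeR code was checked on simulated counts, without correction and with the length correction, and the other alternatives were not checked in this way.

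Members were matched by symbol. Full values were given for up to 3 tested members of each class or family with the smallest unadjusted p and for its most abundant one, and for other members by their ranges and calls. Members, families and lists were chosen with earlier results of these data known. Promoter windows came from RefSeq on GRCm38.p6 by symbol, and no coordinates were moved between builds. 1 list of partner genes is not reported here.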

Additional observations from a re-analysis of the deposited data

How the results depend on the processing

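No paired analysis was possible because the replicates are numbered 1 to 3 in CCI and 4 to 6 in control and share no number. The number of genes called was 7461, between 5511 (without CCI replicate 1) and 8975 (without control replicate 5) with 1 library left out. On log2(FPKM + 1) and log2(FPKM + 0.1), where the fold changes of single genes lay higher by medians of 0.51 and 0.60, 20 and 19 members were higher and 8 and 8 lower, and over all genes 6785 and 6632 were higher and 1374 and 1345 lower. On these scales 6 and 6 G alpha genes were higher and 2 and 2 lower, 1 and 1 G beta genes lower, 5 and 5 G gamma genes higher and 4 and 4 RGS genes lower. With the stricter filter 4 G alpha and 2 G gamma genes were higher. With the length correction 2 G gamma and 3 RGS genes were higher. With the length and mean expression correction 2 G alpha genes were higher and 2 lower, 5 G gamma genes were higher and 0 lower, and 3 RGS genes were higher; of all 14259 genes tested in this way 5328 were called. Leaving out 1 library gave 5 to 11 higher members, 1 to 2 higher G alpha, 0 to 1 higher G beta, 0 to 4 higher G gamma and 3 to 5 higher RGS genes. The causes were not tested.

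Of the 23 members not called 19 changed sign in at least 1 setting. The values below also cover the called member Rgs8 and the partner genes Plcb3, Plcb4, Kcnj5 and Kcnj9, which are not members. With the length correction the changes were -0.17 for Gnao1, -0.31 for Gnal, -0.01 for Gng12, 0.20 for Gng8, -0.20 for Rgs17 and -0.07 for Rgs3. With the length and mean expression correction they were -0.56 for Gnas, -0.27 for Gna15, -0.47 for Gnb3, -0.06 for Gng13, 0.54 for Gng8, 0.40 for Rgs2, -0.14 for Rgs3, 0.31 for Rgs10, -0.11 for Rgs14, 0.42 for Rgs7bp, -0.01 for Plcb3, 0.10 for Plcb4 and 0.19 for Kcnj9. With the stricter filter they were 0.14 for Gna13, 0.04 for Gng4, 0.10 for Gng8, 0.14 for Rgs7bp and 0.07 for Plcb4. On log2(FPKM + 1) and log2(FPKM + 0.1) they were 0.09 and 0.11 for Gna11, 0.49 and 0.56 for Gna13, 0.21 and 0.25 for Gng4, 0.56 and 0.58 for Gng8, 0.35 and 0.36 for Rgs2, 0.14 and 0.16 for Rgs8, 0.06 and 0.06 for Rgs10, 0.55 and 0.56 for Rgs7bp, 0.02 and 0.03 for Rgs9bp, 0.51 and 0.54 for Plcb4, 0.22 and 0.30 for Kcnj5 and 0.24 and 0.25 for Kcnj9. With 1 library left out the range was -0.07 to 0.73 for Gna15, -0.08 to 0.00 for Gna13, -0.30 to 0.52 for Gnb3, -0.02 to 0.15 for Gng12, -0.01 to 0.83 for Gng13, -0.06 to 0.24 for Gng2, -1.0 to 0.19 for Gng4, -0.38 to 0.28 for Gng8, -0.31 to 0.54 for Rgs14, -0.16 to 0.05 for Rgs7bp, -1.32 to 0.08 for Rgs9bp, -0.34 to 0.10 for Plcb4 and -0.41 to 0.10 for Kcnj5. Members with few counts, such as Rgs9bp and Gna15, are limited by depth.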
